A study of Mus musculus with 8 samples.

Results

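The Kruppel-like factors (KLFs) described here are 10 genes chosen by name, Klf2, Klf3, Klf4, Klf6, Klf7, Klf9, Klf10, Klf11, Klf13 and Klf16, out of 56859 genes measured. They were followed in BV2 cells, an immortalized mouse microglial line labelled wild type, by sequencing of poly(A)-selected RNA. All groups, controls included, underwent oxygen-glucose deprivation and reoxygenation, so no untreated cells are among them. The control groups had this treatment alone, with 1 library at 6 h and 3 at 9 h, and the 10panx1 groups also received the pannexin 1 blocking peptide 10panx1, with 1 library at 6 h and 3 at 9 h. The groups follow the sample titles, since the treatment label of the 10panx1 library at 6 h does not name the peptide. Deprivation is described as lasting 9 h for all cells, and what the 6 h in the titles refers to is not stated, nor is a control peptide named. Separate cultures are not stated for the replicates either, so the p-values below reflect variation among libraries that could be technical.

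KLFs are transcription factors that bind GC-rich DNA and CACCC boxes through zinc fingers near the carboxyl end, while the rest of the protein differs and recruits activators or repressors. Klf2, Klf4, Klf6 and Klf7 act mainly as activators. Klf3 represses through CtBP, and Klf9, Klf10, Klf11, Klf13 and Klf16 recruit the Sin3 corepressor. In macrophages the family is known for setting the tone of inflammatory gene expression, with Klf2 and Klf4 as brakes on it and Klf6 as a promoter of it. Whether these roles hold in the cells used here was not tested.

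Of the 17 Kruppel-like genes in the deposited table the 10 members are those with the highest counts, and level is the value that separates them from the rest. Just inside this boundary Klf2 had a mean of 68.1 counts per library, from 45 to 91. Just outside it Klf1 had a mean of 9.88, from 3 to 30. Klf5, Klf12 and Klf17 had at most 3 counts in any library, and Klf8 and Klf14 had none, where 3 counts correspond to between 0.131 and 0.159 CPM (counts scaled by TMM to a common library size, the unit of levels below unless TPM is named). Klf15 had 24 counts in the third control library at 9 h and at most 1 in every other. All 10 members passed the filter on low counts in each comparison, and none of the other 7 passed it at 9 h, while Klf1 and Klf15 passed it over all 8 libraries. The changes of these genes with 10panx1 and with time were also known when the list was drawn up, so the tests below, taken from fits over all genes, are no independent evidence that the family stands apart, and the number of members called is given only as a description.

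Total counts per library ran from 18056693 to 23164860. All 12 microglia and macrophage markers were detected, with a summed level from 1452 to 1723 CPM, of which Cd68 alone made up 485 to 667 CPM. However, P2ry12 lay at or below 0.492 CPM, Tmem119 at or below 1.47 CPM and Aif1 at or below 3.46 CPM. Markers of astrocytes, neurons, oligodendrocytes, lymphoid and erythroid cells and endothelium summed to at most 7.59 CPM each, with Aqp4 and Mog at 0 in every library. Control replicate 3 at 9 h differed from the rest, with 207 CPM over 6 liver markers and 37.2 CPM over 3 fibroblast markers, against at most 1.48 and 1.14 CPM in any other library. These markers were not raised alike in it. Hpx alone made up 156 CPM, Fgb 29.4 CPM and Serpinc1 17.1 CPM, while Alb lay at 4.30, Ttr at 0.157 and Apoa1 at 0.105 CPM. Of the fibroblast markers Col1a1 lay at 29.0 CPM, Col3a1 at 8.24 CPM and Dcn at 0. For the members, values without this library are given where it matters. Changes of other single genes are given only with this library included. In RNA from whole cultures, fewer cells that express a gene and less RNA per cell cannot be told apart.

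Levels set between genes need a scale per transcript length, for which the authors' TPM values (transcript levels scaled per length and to a common total) were used. Klf6 was the most abundant member in each group, with 71.0 and 96.0 TPM in the control and 10panx1 libraries at 6 h, 235, 269 and 268 TPM in the controls at 9 h, and 322, 296 and 322 TPM with 10panx1 at 9 h. Klf16 came next, at 56.4 and 54.1 TPM at 6 h and at means of 37.95 and 31.8 TPM in the control and 10panx1 groups at 9 h. The order below them changed. At 6 h Klf13, Klf10 and Klf9 followed in both treatments, with Klf7 and Klf4 lower. At 9 h in controls Klf4 and Klf7, with means of 22.3 and 22.2 TPM, did not differ beyond their ranges, nor did Klf7 and Klf10 (20.6 TPM), and Klf13 (17.8 TPM) lay below all of them. With 10panx1 at 9 h Klf7, at 31.4 TPM, overlapped in range with Klf16, while Klf13 (22.9 TPM), Klf4 (16.5 TPM), Klf10 (13.5 TPM) and Klf11 (7.91 TPM) followed without overlap between neighbours. Klf9 and Klf2 overlapped at the bottom in both groups at 9 h, and with 10panx1 Klf3 overlapped with Klf9 too.

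The summed level of all 17 genes was 209 and 243 TPM at 6 h, from 384 to 422 TPM in controls at 9 h and from 439 to 461 TPM with 10panx1 at 9 h. Klf6 alone made up 33.9% and 39.5% of it at 6 h, from 61.3% to 65.3% in controls at 9 h and from 67.5% to 70.8% with 10panx1 at 9 h. The other 9 members together lay between 132 and 152 TPM in all 8 libraries, so the higher sum at 9 h lay in Klf6, while the genes beneath it exchanged places.

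**Figure D1:**
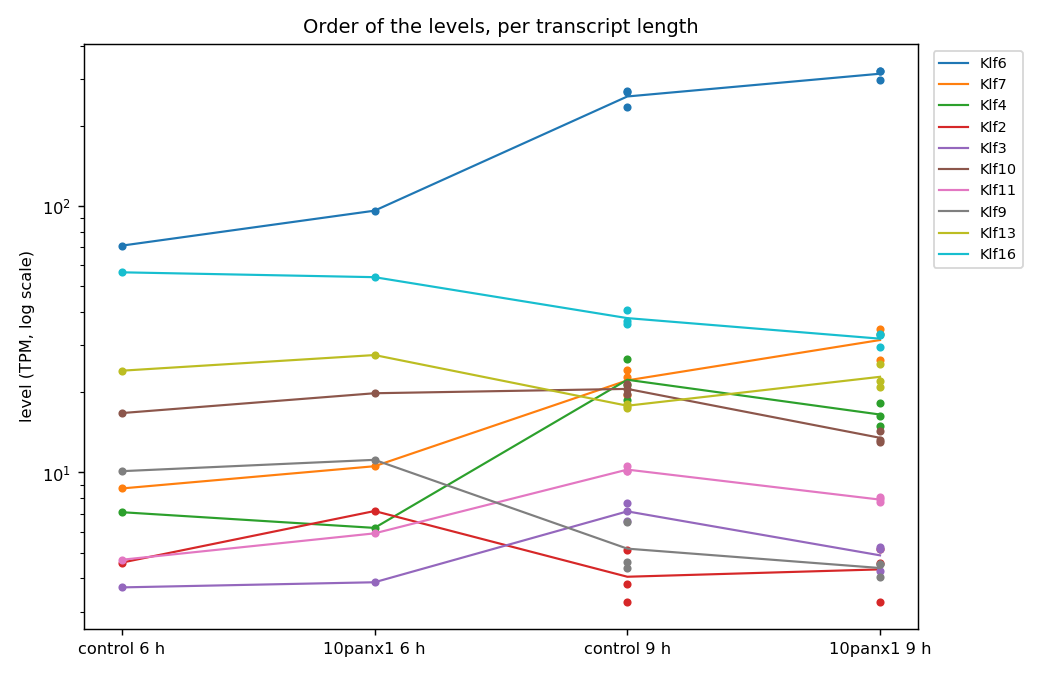
Levels of the 10 members in TPM on a log axis for the 4 groups, with points for libraries and lines through group means. Klf6 leads in each group and moves from 71.0 TPM in the control library at 6 h to between 296 and 322 TPM with 10panx1 at 9 h, whereas Klf9 and Klf16 lie lower at 9 h than at 6 h.

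The study made the comparison of 10panx1 with control to look for pathways tied to a change in the kinase Src under Panx1 inhibition. At 9 h Klf6, Klf7 and Klf13 were higher with 10panx1, by 1.21-fold, 1.41-fold and 1.28-fold, and Klf3, Klf4, Klf10, Klf11 and Klf16 were lower, at between 0.654 and 0.834 of the control level. Klf2 and Klf9 did not pass the test. Thus 8 of 10 members were called (edgeR's quasi-likelihood test, adjusted p under 0.05 over all genes), 3 higher and 5 lower, where 9.21% of the 13392 genes tested were called, 5.06% higher and 4.14% lower. The same 8 did not overlap between the 3 and 3 libraries, 3 higher and 5 lower, against 28.9% of all genes tested, 14.7% higher and 14.2% lower. Their log2 fold changes ran from -0.61 to 0.50 with a median of -0.25, where the median over all genes tested was 0.00. Without the third control library 6 members were called, 3 higher and 3 lower, among 841 of 13674 genes. With limma on the deposited TPM, as log2(TPM + 1) or log2(TPM + 0.1), 1 member was called, Klf10, among 368 and 371 of 13053 genes, and the other 7 of those 8 kept their direction with adjusted p from 0.0511 to 0.125.

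**Figure D2:**
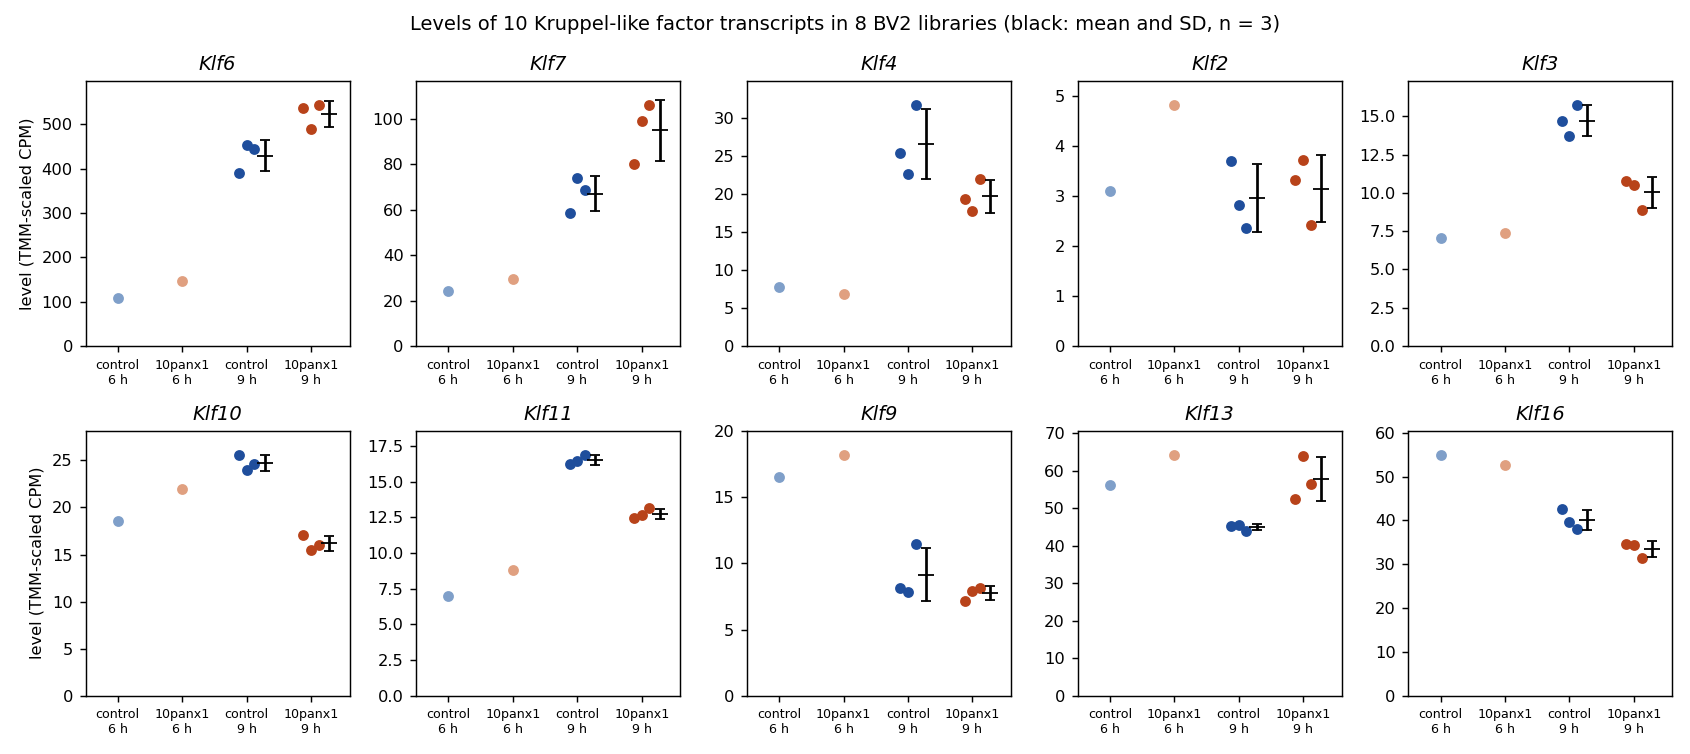
Levels of each member in TMM-scaled CPM, with one point per library, and the mean and SD in black for the groups of 3. At 9 h the 10panx1 libraries lie above the controls for Klf6, Klf7 and Klf13 and below them for Klf3, Klf4, Klf10, Klf11 and Klf16, while those of Klf2 and Klf9 overlap.

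Klf6, an activator that in macrophages favours inflammatory gene expression, lay at 390.0, 454 and 445 CPM in the controls at 9 h and at 536, 489 and 543 CPM with 10panx1. Each 10panx1 library was above each control library, with a narrow gap between the second libraries of the groups. The means were 429.7 ± 34.7 CPM (SD, n = 3) and 523 ± 29.3 CPM, a log2 fold change of 0.28 ± 0.0598 (SE, edgeR, adjusted p = 0.00991). Without the third 10panx1 library the estimate was 0.25 and the call was lost (adjusted p = 0.0538). Klf7, known for its part in axon growth of neurons and in fat cells, lay at 58.5, 73.8 and 68.8 CPM in the controls and at 80.0, 98.9 and 105.9 CPM with 10panx1, again without overlap. Its log2 fold change was 0.50 ± 0.0960 (SE, edgeR, adjusted p = 0.00561). It kept the call without any 1 library and lost it with limma on TPM (adjusted p = 0.0669 and 0.0657). The Klf7 locus overlaps an antisense noncoding RNA, Gm13748, with 15 to 94 counts against 556 to 2369 for Klf7, and although the library kit marks strand, no source used here says whether the counting used it.

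Klf4, one of the factors used to reprogram cells and linked in macrophages to alternative activation, lay at 25.4, 22.7 and 31.7 CPM in the controls and at 19.4, 17.7 and 22.0 CPM with 10panx1. The lowest control and the highest 10panx1 library nearly met. The highest control was the third, the library in which some liver and fibroblast markers were raised. The log2 fold change was -0.43 ± 0.117 (SE, edgeR, adjusted p = 0.0316). It was -0.29 without that library (adjusted p = 0.137), and the call was also lost without control replicate 1 (adjusted p = 0.058), 10panx1 replicate 1 (0.0602) and 10panx1 replicate 2 (0.134), so this fall is the least secure of those called, together with that of Klf16. Klf2, a quiescence factor of endothelium, T cells and myeloid cells, lay at 3.70, 2.81 and 2.36 CPM in the controls and 3.32, 3.71 and 2.41 CPM with 10panx1. The groups overlapped throughout, and the log2 fold change of 0.08 had a 95% interval from -0.40 to 0.56 (edgeR, adjusted p = 0.877), so a change in either direction is within it.

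Among the repressors, Klf3, which binds the corepressor CtBP, lay at 14.7, 13.7 and 15.7 CPM in the controls and at 10.8, 10.5 and 8.90 CPM with 10panx1. Its groups were well apart, with a log2 fold change of -0.55 ± 0.108 (SE, edgeR, adjusted p = 0.00613). It kept the call without any 1 library and lost it with limma on TPM (adjusted p = 0.0644 and 0.0613). Klf10, first known as a gene induced early by TGF-beta, lay at 25.6, 23.98 and 24.6 CPM in the controls and at 17.1, 15.5 and 16.1 CPM with 10panx1. This was the largest change of a member in the comparison, with a log2 fold change of -0.61 ± 0.0796 (SE, edgeR, adjusted p = 0.00124). It was called under each of 13 alternatives, with an adjusted p of at most 0.0346. Klf11, its nearest relative and also induced by TGF-beta, lay at 16.2, 16.4 and 16.9 CPM in the controls and at 12.4, 12.7 and 13.1 CPM with 10panx1. The replicates agreed closely, with a coefficient of variation of 2.02% and 2.85%, and the log2 fold change was -0.38 ± 0.0879 (SE, edgeR, adjusted p = 0.0159). Without control replicate 2 or 3 it just missed the threshold (adjusted p = 0.0529 and 0.0566).

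Klf13, known in T lymphocytes as an activator of the chemokine gene Ccl5, was the only Sin3-binding member that rose, from 45.3, 45.4 and 44.0 CPM to 52.5, 63.99 and 56.5 CPM. Each 10panx1 library lay above the controls, which were tightly grouped, while the 10panx1 libraries spread more widely. Its log2 fold change was 0.36 ± 0.0739 (SE, edgeR, adjusted p = 0.00853). It kept the call without any 1 library and lost it with limma on TPM (adjusted p = 0.0665 and 0.0644). Klf16, a repressor of GC-box promoters, fell from 42.5, 39.6 and 38.0 CPM to 34.6, 34.5 and 31.4 CPM, a log2 fold change of -0.26 ± 0.0726 (SE, edgeR, adjusted p = 0.0356). It lost the call without control replicate 1 (adjusted p = 0.13), control replicate 2 (0.0973), 10panx1 replicate 2 (0.0681) or 10panx1 replicate 3 (0.153). Klf9, a target of the glucocorticoid and thyroid hormone receptors, lay at 8.12, 7.86 and 11.5 CPM in the controls and at 7.16, 7.95 and 8.14 CPM with 10panx1. The groups overlapped, the third control library being the highest, and the log2 fold change of -0.24 had a 95% interval from -0.56 to 0.08 (edgeR, adjusted p = 0.36). Without that library, in which some liver and fibroblast markers were raised, it was -0.05 (adjusted p = 0.893).

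At 6 h each group was a single library, so no test was made, and 95% intervals there cover counting error only. Klf6 had 109 CPM without and 148 CPM with the peptide, a log2 ratio of 0.43 with an interval from 0.35 to 0.51. Klf7 had a ratio of 0.27 (0.10 to 0.45) and Klf13 one of 0.19 (0.08 to 0.31), so the members that rose at 9 h were also the higher in the 10panx1 library at 6 h. Klf4, at 7.83 and 6.83 CPM, and Klf16, at 54.96 and 52.6 CPM, had ratios of -0.20 and -0.06 with intervals that include 0. Klf10 was different. Its level was 18.5 CPM without and 21.96 CPM with the peptide, a log2 ratio of 0.24 (0.05 to 0.44), opposite in sign to its fall at 9 h. Klf11, at 7.01 and 8.78 CPM, had a ratio of 0.33 (0.00 to 0.65), also opposite in sign, and Klf3, at 7.05 and 7.36 CPM, one of 0.06 (-0.28 to 0.40). Klf2, at 3.09 and 4.82 CPM, had the highest ratio, 0.64 (0.18 to 1.11). Klf9, at 16.5 and 18.2 CPM, had a ratio of 0.14 (-0.08 to 0.35). Of the members only Klf4 and Klf16 had ratios below 0 at 6 h, so a positive ratio does not set apart those that rose at 9 h. Past 1.5-fold at 6 h was 1 member, Klf2, higher with 10panx1, where 5.08% of genes were past it upwards and 5.66% downwards.

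Whether the effect of 10panx1 differed between the times was tested as an interaction over all 8 libraries. None of the 15331 genes tested was called by edgeR (0.0%), with 874 (5.7%) at an unadjusted p under 0.05, and none by DESeq2. The estimate for Klf10 was -0.86 on the log2 scale (SE 0.162), with an unadjusted p of 0.000151 and an adjusted p of 0.464. Klf11 had an estimate of -0.70 (adjusted p = 0.848) and Klf3 one of -0.61 (adjusted p = 0.853), and these 3 were the members with an unadjusted p under 0.05. Without a filter on low counts Klf10 was called (edgeR, adjusted p = 0.0159). The p-values of fits without the filter are not on the scale of the main fits. For Klf6 over time the adjusted p was 1.46e-245 without the filter and 2.25e-11 with it (edgeR), at estimates of 1.9 and 1.89. A change of sign between 6 h and 9 h was thus not established for any member, and it rests on 1 library in each group at 6 h.

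**Figure D3:**
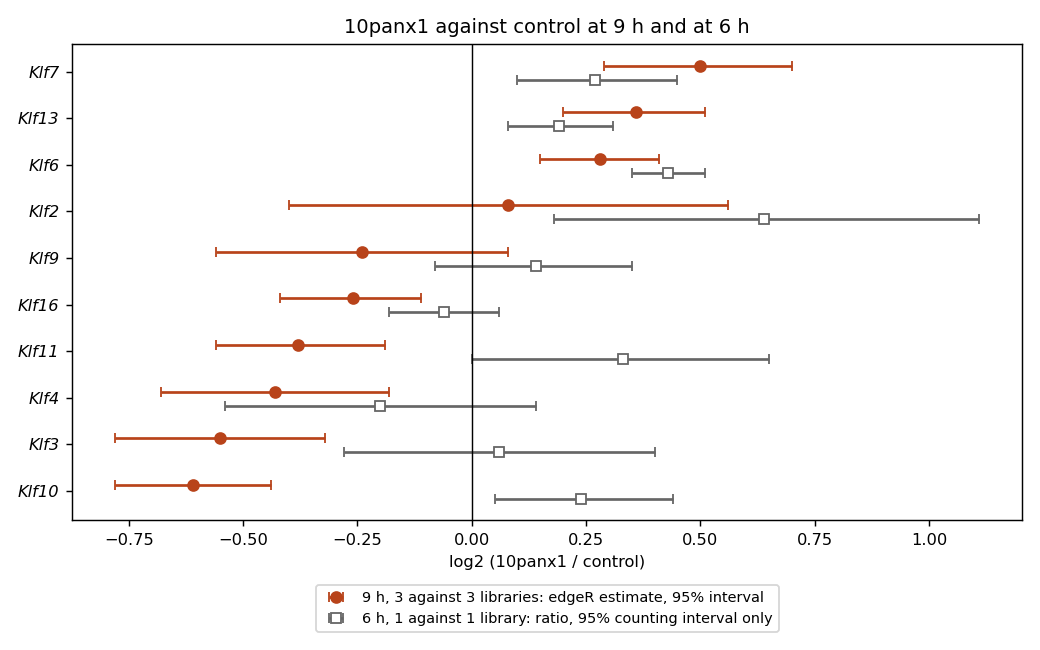
Log2 ratio of 10panx1 to control for each member, as the edgeR estimate with its 95% interval at 9 h and as the ratio of 2 single libraries at 6 h, with an interval for counting error only. The interval lies above 0 at both times for Klf6, Klf7 and Klf13, while Klf10 lies at -0.61 at 9 h and 0.24 at 6 h.

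Time was tested with both treatments together, 2 libraries at 6 h and 6 at 9 h, adjusting for treatment. This comparison shares its 9 h libraries with the first comparison, so the values of both are given side by side and no relation between them is drawn. No batch is labelled, and a batch that followed the times and time itself cannot be told apart. The summed microglia and macrophage markers were 1712 and 1723 CPM at 6 h and from 1452 to 1584 CPM at 9 h. Single markers in this sum went both ways. Cd68 lay at 667 and 638 CPM at 6 h and from 485 to 528 CPM at 9 h. Csf1r lay at 281 and 281 CPM at 6 h and from 313 to 374 CPM at 9 h. The 4 endothelial markers summed to 1.61 and 2.59 CPM at 6 h and from 3.51 to 6.04 CPM at 9 h. The part of these markers in the results over time was not tested. Klf6, Klf4 and Klf7 rose by 3.71-fold, 3.14-fold and 2.97-fold, Klf11 and Klf3 rose by 1.84-fold and 1.69-fold, and Klf9, Klf16 and Klf13 fell to 0.483, 0.679 and 0.844 of the level at 6 h. Of the 10 members 8 were called, 5 higher and 3 lower, where 59.8% of 15331 genes tested were called, 30.3% higher and 29.6% lower. The median absolute log2 change of the members was 0.82, against 0.42 over all genes tested and 0.59 over those called. Both libraries at 6 h lay beyond all 6 at 9 h for 7 members, 5 higher and 2 lower at 9 h, against 59.2% of all genes tested, 29.9% higher and 29.3% lower.

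Klf6 rose from 109 and 148 CPM at 6 h to between 390.0 and 543 CPM at 9 h, a log2 fold change of 1.89 ± 0.0701 (SE, edgeR, adjusted p = 2.25e-11). Klf4 rose from 7.83 and 6.83 CPM to between 17.7 and 31.7 CPM, a log2 fold change of 1.65 ± 0.144 (SE, adjusted p = 1.54e-07). Klf7 rose from 24.3 and 29.4 CPM to between 58.5 and 105.9 CPM, a log2 fold change of 1.57 ± 0.115 (SE, adjusted p = 2.48e-08). For these 3 activators both libraries at 6 h were far below all at 9 h. Klf11 (log2 fold change 0.88, adjusted p = 4.42e-05) and Klf3 (0.76, adjusted p = 0.000271) also rose. In controls Klf11 was 2.36-fold and Klf3 2.09-fold the level of the 6 h library, and with 10panx1 1.45-fold and 1.37-fold, differences that did not pass the interaction test.

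Klf9 had the deepest fall, from 16.5 and 18.2 CPM to between 7.16 and 11.5 CPM, a log2 fold change of -1.05 ± 0.134 (SE, edgeR, adjusted p = 8.19e-06). Klf16 fell from 54.96 and 52.6 CPM to between 31.4 and 42.5 CPM, a log2 fold change of -0.56 ± 0.0708 (SE, adjusted p = 7.60e-06). Klf13 fell less, with a log2 fold change of -0.24 (adjusted p = 0.00902), and its 10panx1 libraries at 9 h overlapped with the libraries at 6 h. Without the control library at 6 h its estimate was -0.17 and the call was lost (adjusted p = 0.201). Klf2 had a log2 fold change of -0.36 with a 95% interval from -0.81 to 0.10 (adjusted p = 0.164). Klf10 averaged to a log2 fold change of -0.02 (adjusted p = 0.887) from opposite values, at 1.33-fold the 6 h level in controls and 0.738 of it with 10panx1. Without the control library at 6 h its estimate was -0.45 (adjusted p = 0.00582), and without the 10panx1 library at 6 h it was 0.40 (adjusted p = 0.0108).

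**Figure D4:**
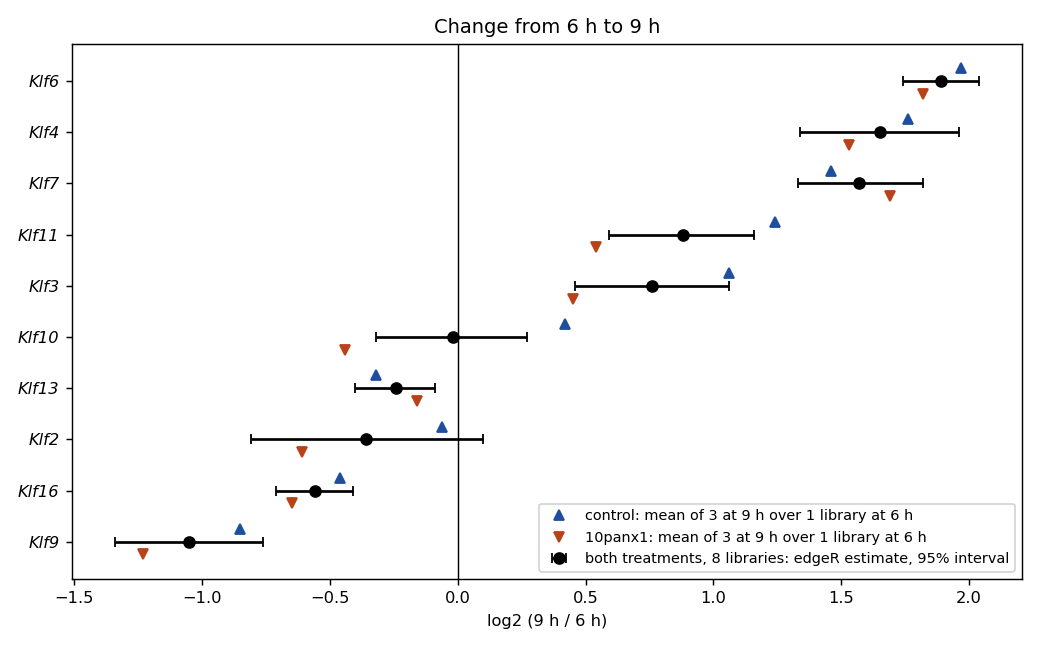
Log2 ratio of 9 h to 6 h for each member, as the edgeR estimate over both treatments with its 95% interval and as the ratio within each treatment, where the 6 h level is 1 library. Klf6, Klf4 and Klf7 lie above 1.3 on this scale and Klf9 near -1.05, and for Klf10 the ratios within the treatments lie on opposite sides of 0.

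To show the DNA at the start of the genes that rose with time, the 250 bases before the RefSeq transcription start (GRCm38.p6) are printed 5′ to 3′ on the strand of the gene, with every GGGCGG (the GC box) and CCACCC (the CACCC box), on either strand, in capitals. The windows are chr13:5861239-5861488 (plus strand) for Klf6, chr1:64121390-64121639 (minus) for Klf7, chr5:64803271-64803520 (plus) for Klf3, chr4:55532476-55532725 (minus) for Klf4 and chr12:24651121-24651370 (plus) for Klf11.
Klf6: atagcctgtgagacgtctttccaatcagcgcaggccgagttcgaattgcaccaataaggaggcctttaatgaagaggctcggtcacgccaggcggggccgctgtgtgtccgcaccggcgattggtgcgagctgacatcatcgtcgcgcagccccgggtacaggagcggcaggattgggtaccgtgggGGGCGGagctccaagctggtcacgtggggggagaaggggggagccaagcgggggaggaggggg
Klf7: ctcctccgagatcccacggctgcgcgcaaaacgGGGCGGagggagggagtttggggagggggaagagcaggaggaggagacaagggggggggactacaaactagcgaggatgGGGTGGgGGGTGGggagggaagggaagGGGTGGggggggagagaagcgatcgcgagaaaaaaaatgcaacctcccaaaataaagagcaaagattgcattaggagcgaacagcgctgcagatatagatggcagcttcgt
Klf3: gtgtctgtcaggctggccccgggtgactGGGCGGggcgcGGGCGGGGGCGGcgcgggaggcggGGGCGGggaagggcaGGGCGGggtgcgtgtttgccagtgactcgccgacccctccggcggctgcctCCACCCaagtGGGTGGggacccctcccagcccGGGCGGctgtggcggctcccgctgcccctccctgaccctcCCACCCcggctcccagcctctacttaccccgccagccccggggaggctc
Klf4: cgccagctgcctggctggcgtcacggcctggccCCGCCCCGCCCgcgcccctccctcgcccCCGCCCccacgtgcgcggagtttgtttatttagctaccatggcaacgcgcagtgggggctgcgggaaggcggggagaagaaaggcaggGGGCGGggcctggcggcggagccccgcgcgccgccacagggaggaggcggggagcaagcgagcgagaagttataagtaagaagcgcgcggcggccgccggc
Klf11: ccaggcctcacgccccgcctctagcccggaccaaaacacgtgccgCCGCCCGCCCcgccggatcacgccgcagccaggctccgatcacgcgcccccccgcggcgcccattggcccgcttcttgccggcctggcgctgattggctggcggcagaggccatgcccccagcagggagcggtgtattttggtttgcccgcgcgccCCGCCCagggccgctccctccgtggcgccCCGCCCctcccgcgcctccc
The RefSeq promoter table held 8 of the 10 members, with Klf10 and Klf16 not among them. GGGCGG or its reverse complement was found in 7 of these 8 windows, against 32.7% of 32851 promoter windows of the same length, and CCACCC or its reverse complement in 4 of 8, against 28.1%. The members' windows had a GC content from 59.2% to 78.4%, against a median of 52.4%, and such motifs are more frequent in GC-rich DNA. Klf3 held 6 GC boxes and 3 CACCC boxes, Klf4 and Klf11 held 4 GC boxes and no CACCC box, Klf7 held 1 and 3, and Klf6 held 1 GC box only. CCAAT was found in 4 of 8 windows, 4 times in Klf6 and 2 times in Klf11, against 33.8% of all windows. TGACGTCA and TATAAA were found in none of the 8, against 1.55% and 12.4%. In the 5 windows printed no different motifs overlapped, though neighbouring GC boxes overlap each other in Klf4 and Klf11, so that their capitals run on. These matches describe letters and show no binding.

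Genes that work with the KLFs were taken from lists of known partners, and 9.21% of all genes were called in this comparison. Of the Sp factors, the nearest relatives, which bind the same GC boxes, 4 of 9 had enough counts, and 1 of the 4, Sp4, fell with 10panx1 from 8.19 ± 1.13 to 4.13 ± 0.618 CPM (log2 fold change -0.99, edgeR, adjusted p = 0.00221). None of 9 corepressors and coactivators that bind KLFs, such as CtBP, Sin3 and histone deacetylases, was called, nor any of 7 genes of the ERK5 and MEF2 route that induces Klf2 and Klf4, nor any of 4 ubiquitin ligases that act on KLFs. Of 7 genes of TGF-beta signalling, which induces Klf10 and Klf11, 2 fell with 10panx1 and none rose. Smad3, a transducer of the pathway, lay at 15.0 ± 2.34 CPM in controls and 11.2 ± 0.867 CPM with 10panx1 (log2 fold change -0.42, adjusted p = 0.0369), and Tgfbr1, a receptor subunit, at 28.01 ± 1.69 and 22.7 ± 2.42 CPM (-0.31, adjusted p = 0.0445). Of 5 glucocorticoid receptor genes, the receptor and targets besides Klf9, 2 rose with 10panx1 and none fell. These were the kinase Sgk1, from 98.4 ± 10.04 to 129.6 ± 8.08 CPM (log2 fold change 0.39, adjusted p = 0.00382), and Nr3c1, the receptor itself (0.22, adjusted p = 0.0243). Of 9 genes known as KLF targets in other cells 7 were tested and none was called. The medians of these lists lay between -0.02 and 0.14 on the log2 scale, against 0.00 over all genes tested.

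The same lists were counted over time, where 59.8% of all genes were called. The 5 glucocorticoid receptor genes all rose, led by Sgk1 (log2 fold change 1.57, edgeR, adjusted p = 9.26e-10) and Nr3c1 (0.83, adjusted p = 2.86e-08), whereas Klf9 fell. Of the TGF-beta genes 5 rose and 1 fell, with Smad7, an inhibitor of the pathway, at a log2 fold change of 1.59 (adjusted p = 1.45e-09) and Tgfb1, the ligand, at -0.48 (adjusted p = 1.68e-07). Of 8 KLF targets tested 6 rose and none fell, led by Bcl6, a repressor reported to be held down by Klf6 in macrophages, which rose by 2.20 on the log2 scale (adjusted p = 1.13e-10) beside the rise of Klf6. Smad7 was also on that list. Of the 9 cofactors 3 rose and 2 fell, with Crebbp, an acetyltransferase, at a log2 fold change of 0.82 (adjusted p = 7.89e-09), and Sin3a falling from 90.9 and 103.8 CPM to means of 50.96 and 46.8 CPM (adjusted p = 9.03e-08). Of the 7 ERK5 and MEF2 genes 2 rose and 2 fell, with Mef2a at 0.87 (adjusted p = 3.68e-08) and Map3k2 at 0.72 (adjusted p = 3.22e-07). Of the 4 ubiquitin ligases 2 rose and 2 fell, with Smurf1 at 0.38 (adjusted p = 0.000104) and Siah1a at -0.62 (adjusted p = 0.00097). Among the 4 Sp factors 1 rose, Sp2 (0.57, adjusted p = 7.56e-05), and 2 fell, with Sp1 at -0.25 (adjusted p = 0.00311).

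The genes whose levels followed each member most closely over the 8 libraries were taken from 9867 genes with a mean of at least 50 counts, by Pearson's r of log2(CPM + 1). The libraries share the 4 groups, so any pair of genes that changes with time will correlate, and r is given only as a description. Klf6 was followed by Mxd1 (r = 0.999) and Edn1 (0.997), and Klf7 by Arhgap25 (0.998). Mxd1 encodes an antagonist of Myc and Edn1 encodes endothelin. Klf4 was followed by Tbpl1 (0.997) and Hycc1 (0.994), Klf11 by Usp53 (0.993) and Zyg11b (0.992), and Klf3 by Efnb1 (0.983) and Mylip (0.981). Klf16 was followed by Rex1bd (0.995) and Txndc11 (0.993), Klf9 by Adipor1 (0.984) and Hp (0.981), and Klf13 by Tbkbp1 (0.979) and Dtwd1 (0.978). The lowest values were those of Klf10, with Depdc1b (0.965) and Hsf2 (0.964), and Klf2, with Rassf4 (0.949) and Tap2 (0.934). Adipor1 ranged only from 172.5 to 186 CPM, so a high r does not mean a change of like size.

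The deposited coordinates carry no build name. They place Klf6 (ENSMUSG00000000078) at 5911481 to 5920393 of chromosome 13, plus strand, and Klf3 (ENSMUSG00000029178) at 64960731 to 64990244 of chromosome 5, plus strand. On the minus strand they place Klf4 (ENSMUSG00000003032) at 55527143 to 55532466 of chromosome 4, Klf7 (ENSMUSG00000025959) at 64068606 to 64161441 of chromosome 1 and Klf10 (ENSMUSG00000037465) at 38291707 to 38300950 of chromosome 15. All 10 members are protein-coding and lie on 10 different chromosomes. Besides Klf7, the members Klf3 and Klf13 overlap genes on the opposite strand, with at most 3 counts in any library.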

How the data were processed

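Whole-number read counts per gene and TPM values were deposited by the authors for 8 libraries. The tools FastQC, Trimmomatic, STAR, featureCounts and DESeq2 and the build GRCm38 appear in the submitters' processing notes with no version, yet only 1420 of 51933 genes (2.73%) start where the GENCODE annotation of GRCm38 places them. How multiply mapped reads were counted, and whether strand was used, was not found in the labels. Of 57010 rows, 151 identical repeats of 148 symbols were dropped. No pair of replicates at 9 h was a duplicate (chi-square over degrees of freedom 4.03 to 7.04).

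edgeR 4.0.16 (R 4.3.3) was run on the counts with TMM scaling, filterByExpr, a two-sided quasi-likelihood test and Benjamini-Hochberg adjustment over every gene tested, calling genes at 0.05. Treatment at 9 h was fitted on 6 libraries, time and interaction on 8. Standard errors derive from the quasi-likelihood F, and the scripts were tested on simulated counts. At 6 h, exact binomial 95% intervals cover counting error only. Alternatives were RLE scaling, no filter, DESeq2 1.42.0, limma 3.58.1 on log2(TPM + 1) or log2(TPM + 0.1) where the average TPM reached 1, a replicate block, all 8 libraries, and leaving out each library.

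The members and 8 gene lists were chosen with earlier results of these data known. All members are described, and from each other list up to 2 called genes with the smallest p per comparison. The genes most like each member are the 2 with the highest r among symbols that are no clone or pseudogene, of which 1 is not reported here. The 1.5-fold limit at 6 h was chosen after the values were seen. Motifs were searched on both strands of the 250 bases before each RefSeq start. Figures used Python 3.11.15, pandas 2.3.3 and matplotlib 3.10.9.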

Additional observations from a re-analysis of the deposited data

Results flagged for a closer look

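For 3 members the difference between 10panx1 and control libraries ran one way at 6 h and the other at 9 h, with no overlap between the groups at 9 h. In a test of that difference over all 8 libraries, Klf10 had an interaction estimate of -0.86 (log2, 9 h minus 6 h), Klf11 one of -0.70 and Klf3 one of -0.61. None passed in the main edgeR fit, with its filter on low counts and adjustment over all genes (adjusted p = 0.464, 0.848 and 0.853). Without that filter Klf10 alone passed, in a fit whose p-values are not on the scale of the main fit. Each value at 6 h rests on 1 library per group. For Klf3 the interval for counting error at 6 h includes 0.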

How the results depend on the processing

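The direction of all 8 members called at 9 h was the same under all 13 alternatives. On the deposited TPM, limma called 1 member, Klf10, with either pseudocount, and 368 genes with log2(TPM + 1) and 371 with log2(TPM + 0.1), against 8 members and 1233 genes with edgeR on counts. The other 7 members had adjusted p from 0.0511 to 0.125 there. Leaving out 1 library at a time gave from 598 to 1433 genes and from 6 to 7 members at 9 h, with 598 and 695 genes without control replicates 1 and 2 and 676 and 600 without 10panx1 replicates 2 and 3. Fitting all 8 libraries lost only Klf4 (adjusted p = 0.0524). The estimate of Klf2, never called, changed sign without control replicate 3 (-0.0552) and without 10panx1 replicate 2 (-0.0548), in a range up to 0.269. With the replicate number as a block 1850 genes and the same number of members, 8, were called. Deviations of same-numbered libraries had correlations of 0.216, -0.019 and 0.134. Differently numbered libraries were not compared in this way, so these values cannot decide whether the numbers pair the libraries. The labels give no block, and the main fit used none. Over time 9175 of 15331 genes were called with all libraries. The same 8 members were called under each alternative that kept both libraries at 6 h. The set changed when either was left out, which leaves 1 library at 6 h. The estimate of Klf13 was then -0.166 without the control library and -0.334 without the 10panx1 library. Klf10 was at -0.45 without the control library at 6 h and had a positive estimate without the 10panx1 library at 6 h (0.403), without 10panx1 replicate 2 (0.0228) and without 10panx1 replicate 3 (0.00941) at 9 h. Limma on log2(TPM + 1) split its time calls into 3062 higher and 5073 lower genes, against 4643 and 4532 with edgeR. The median change of all genes was -0.109 in that fit and 0.011 with edgeR on the log2 scale, and unit, method and filter all differed, so the cause was not tested. For the interaction edgeR called 34 genes and 1 member, Klf10, without a filter, limma on log2(TPM + 0.1) called 2 genes, and leaving out 1 library at 9 h gave from 0 to 1 gene and 0 members. Klf2 had the fewest counts of the members, 45 to 91 per library.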
